A study of Homo sapiens with 4 samples.

Results

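MicroRNA host genes are genes whose primary transcript carries microRNA hairpins, and the 37 non-coding ones described here were measured in A549 cells, a human lung adenocarcinoma line, with and without glutamine. Members were chosen by their symbol, MIR followed by a number or by LET7 and ending in HG, among non-coding genes, and selected on a mean of at least 20 counts over the 4 libraries. Of 83 genes with such a symbol in the annotation, 81 were non-coding, 60 of these had at least 1 count, and 37 reached the mean of 20, out of 58560 genes in all. The glutamine-deprived group held 2 libraries of A549 cells that were washed with PBS and kept in DMEM free of glutamine with 10% FBS, for 24 hours in deprived replicate 1 and 25 hours in deprived replicate 2 by their sample labels (the shared protocol gives 24 hours). The control group held 2 libraries of A549 cells labelled as untreated, and the growth medium named for the line is DMEM with 10% FBS and antibiotics. Nothing in the labels says whether the 2 libraries of a group came from separate cultures, so the p-values measure the spread between these libraries, which may be technical.

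A microRNA is cut in the nucleus from a long primary transcript by DROSHA and DGCR8, exported by XPO5, cut again by DICER1 and loaded on an Argonaute protein, where its seed, the bases near its 5′ end, pairs with target mRNAs. Host genes of this class give a long non-coding RNA as well as the hairpin, and some of these RNAs, such as MIR31HG and MIR22HG, have been studied in lung cancer in their own right. The libraries were made from polyadenylated RNA. They therefore measured the spliced or unprocessed host RNA, and mature microRNAs were not measured.

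The hosts differ in what they carry. Within their spans, on the same strand, the 37 genes held 75 annotated microRNA genes, of which 31 lay inside an exon of at least 1 host transcript, 42 lay in introns and 2 crossed an exon edge. RefSeq (GRCh38.p14) gave mature sequences for 73 of them. The host that moved furthest down carried the hypoxia-linked miR-210, and other hosts that fell carried let-7i, let-7b, the miR-17 cluster, miR-29, miR-193b and miR-31. A well known mature arm of each is shown 5′ to 3′, with the seed (bases 2 to 8) in capitals, so that shared seeds can be seen.
miR-210-3p (MIR210HG): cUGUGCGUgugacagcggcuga
let-7i-5p (MIRLET7IHG): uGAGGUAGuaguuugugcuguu
let-7b-5p (MIRLET7BHG): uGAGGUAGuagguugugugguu
miR-29b-3p (MIR29B2CHG): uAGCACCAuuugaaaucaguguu
miR-29c-3p (MIR29B2CHG): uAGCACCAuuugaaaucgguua
miR-192-5p (MIR194-2HG): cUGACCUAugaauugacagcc
miR-194-5p (MIR194-2HG): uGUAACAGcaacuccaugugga
miR-193b-3p (MIR193BHG): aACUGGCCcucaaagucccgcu
miR-365a-3p (MIR193BHG): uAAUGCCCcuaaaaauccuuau
miR-31-5p (MIR31HG): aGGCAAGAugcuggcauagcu
miR-195-5p (MIR497HG): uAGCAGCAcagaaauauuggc
miR-497-5p (MIR497HG): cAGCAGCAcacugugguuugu
miR-17-5p (MIR17HG): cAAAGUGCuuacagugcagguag
miR-20a-5p (MIR17HG): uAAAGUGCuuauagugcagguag
miR-18a-5p (MIR17HG): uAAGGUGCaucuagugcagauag
miR-19a-3p (MIR17HG): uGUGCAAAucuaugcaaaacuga
miR-19b-3p (MIR17HG): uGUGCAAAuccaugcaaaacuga
miR-92a-3p (MIR17HG): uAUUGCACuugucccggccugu

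Hosts that rose carried miR-22, miR-34a, the miR-23a, miR-221 and miR-181 clusters and the paired clusters of miR-100 and miR-99a. Their mature arms are shown in the same way, and 4 of the seeds below recur in other hosts of the set.
miR-22-3p (MIR22HG): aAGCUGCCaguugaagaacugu
miR-34a-5p (MIR34AHG): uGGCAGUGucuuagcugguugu
miR-4435 (MIR4435-2HG): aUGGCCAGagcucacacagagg
miR-23a-3p (MIR23AHG): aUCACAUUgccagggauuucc
miR-27a-3p (MIR23AHG): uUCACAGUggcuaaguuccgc
miR-24-3p (MIR23AHG): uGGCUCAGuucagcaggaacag
miR-221-3p (MIR222HG): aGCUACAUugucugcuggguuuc
miR-222-3p (MIR222HG): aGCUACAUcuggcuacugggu
miR-100-5p (MIR100HG): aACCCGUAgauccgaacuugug
miR-99a-5p (MIR99AHG): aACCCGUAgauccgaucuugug
miR-125b-5p (MIR100HG and MIR99AHG): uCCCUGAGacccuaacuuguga
let-7a-5p (MIR100HG and MIRLET7BHG): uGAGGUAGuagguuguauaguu
let-7c-5p (MIR99AHG): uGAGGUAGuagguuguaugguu
miR-181a-5p (MIR181A1HG and MIR181A2HG): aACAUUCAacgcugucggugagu
miR-181b-5p (MIR181A1HG and MIR181A2HG): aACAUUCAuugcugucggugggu
miR-503-5p (MIR503HG): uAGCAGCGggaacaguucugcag

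The libraries summed to 123414592 and 120425759 counts in the deprived cells and to 101496318 and 101982373 counts in the controls. The 5 epithelial markers KRT8, KRT18, KRT19, EPCAM and CDH1 were all detected and all 5 were called lower, with a summed level of 1730 to 2019 CPM (counts scaled to a common library size, here with TMM factors) in deprived and 7570 to 7681 CPM in control libraries. Of 5 blood markers, 2 were called lower (summed level 0.756 to 0.820 CPM in deprived, 12.6 to 25.3 CPM in control libraries), with CD3E at 0 in both deprived libraries. Control replicate 1 stood apart in HBB, which was called lower (edgeR adjusted p = 0.0379), with 0.134 and 0.111 CPM in deprived libraries, 11.6 CPM in control replicate 1 and 0.227 CPM in control replicate 2. Of 5 fibroblast markers 1 was called lower (1.21 to 1.79 CPM in deprived, 2.53 to 2.69 CPM in control libraries), and of 5 endothelial markers 3 were called lower at 0.124 to 0.166 CPM in deprived and 0.735 to 0.910 CPM in control libraries. The part of these markers in the changes of the host genes was not tested.

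The comparison asked which host genes differ in level after a day without glutamine. Of the 37 members, 10 passed the test as higher in deprived cells and 11 as lower (quasi-likelihood test of edgeR, adjusted p under 0.05 after Benjamini-Hochberg correction across the 24527 genes tested). Among all genes tested, 25.2% were called higher and 24.4% lower (49.6% in either direction). Among non-coding genes tested, 9.62% were called higher and 16.4% lower. With the same mean of at least 20 counts, 12.4% of 4301 non-coding genes tested were called higher and 19.2% lower, against 29% and 26.9% of 20795 genes of any type. The members' shares were 27.0% higher and 29.7% lower, and depth was matched only by this lower limit. With library size as the only scaling, 4179 of all genes were called higher and 8565 lower, against 6174 and 5982 with TMM, and 7 members were higher and 12 lower. Their median log2 fold change was -0.04, against -0.06 over all genes tested. Changes of at least 2-fold were called for 5 hosts that were higher and 9 that were lower (13.5% and 24.3%), against 12.4% and 15.3% of all genes tested and 9.56% and 16.2% of non-coding genes with a mean of at least 20 counts. In bulk RNA, fewer cells that express a gene and less RNA per cell cannot be told apart, and this holds for each change below.

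**Figure D1:**
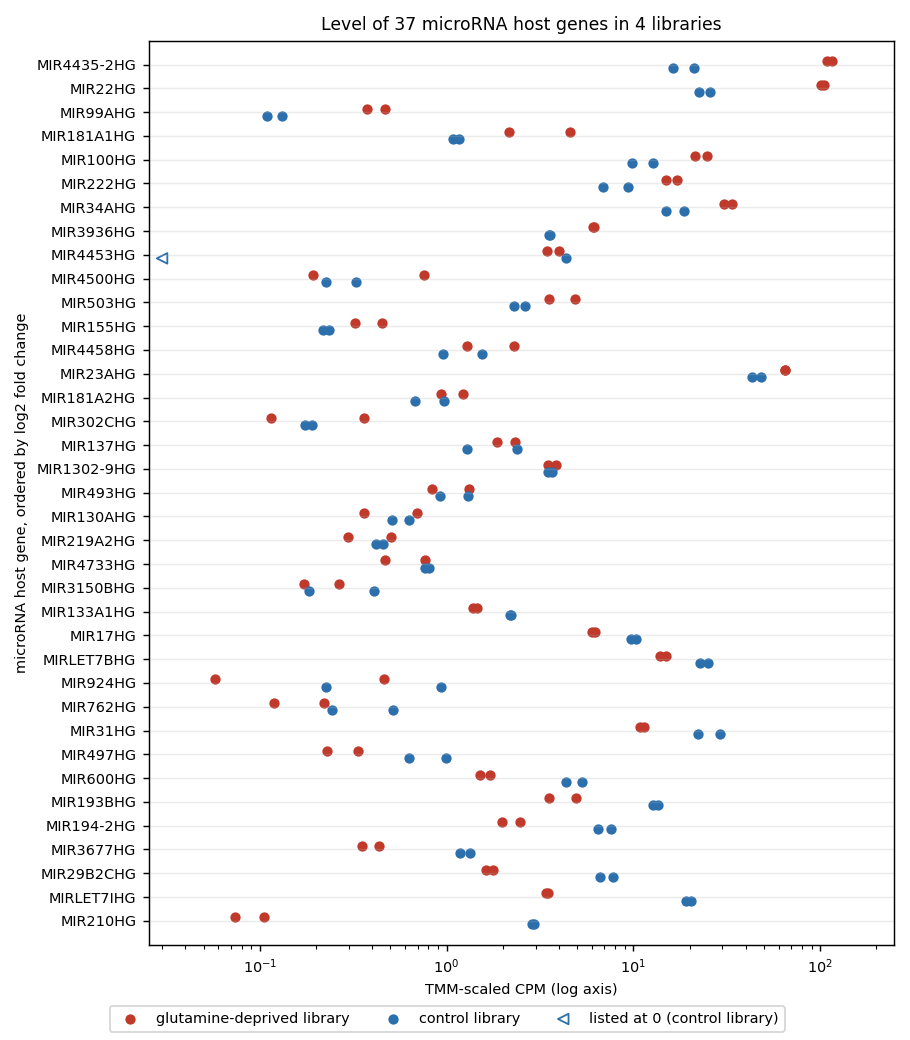
TMM-scaled CPM (log axis) of the 37 microRNA host genes in each glutamine-deprived and control library, 1 point per library, ordered from the largest positive log2 fold change at the top to the largest negative at the bottom. MIR4435-2HG and MIR22HG stand above 100 CPM in both deprived libraries, MIR210HG lies near 0.1 CPM in them against almost 3 CPM in the controls, and MIR4453HG is listed at 0 in control replicate 1.

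The rule for members used the mean count alone and not the comparison of the groups. Yet 2 members, MIR210HG and MIR762HG, averaged under 20 counts in the deprived libraries, and 1, MIR99AHG, in the controls, so these passed through the group in which they were higher. Just inside the limit were MIR302CHG (mean 23.0 counts), MIR3150BHG (28.25) and MIR99AHG (29.25). Just outside it were MIR378D2HG (18.25 counts), MIR205HG and MIR381HG (8.75 each). MIR9-1HG matches by symbol but is annotated as protein-coding and was not a member. In all, 44 of the 81 genes lay below the limit, 21 of them with no count in any library. All 37 members passed the filter on low counts.

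MIR210HG, the host of the hypoxia-induced miR-210, had the lowest fold change of the set (chromosome 11, 565660 to 568457, minus strand, GRCh38; ENSG00000247095). Its counts were 11 and 8 under deprivation and 328 and 323 in control cells, or 0.105 and 0.0737 CPM against 2.87 and 2.93 CPM. Its mean count reached the limit for members through the control libraries alone. Its place in the set thus depends on the group in which it was higher. Both deprived libraries lay far below both controls, and the fold change was -5.00 ± 0.32 (log2, SE; edgeR adjusted p = 7.32e-05). It was between -5.27 and -4.75 when each library in turn was left out. MIR210 lies in an intron of all 4 annotated transcripts, and none of these shares an exon with another gene. Among the factors known to act on hypoxic promoters, HIF1A RNA was lower at 457 and 451 CPM in deprived and 639 and 701 CPM in control libraries (-0.56 ± 0.08, adjusted p = 0.00226), whereas EPAS1 RNA was higher at 675 and 622 CPM against 182 and 168 CPM (1.89 ± 0.09, adjusted p = 2.96e-05).

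The promoter of MIR210HG lies at chr11:568408-568707 on the minus strand (GRCh38.p14, from RefSeq, 250 bases before to 50 after the annotated start). It is shown because its gene had the largest fold change among the members, so it was picked by its result. Capitals mark the letters ACGTG, a form of the core of the hypoxia response element, searched on both strands. Other forms of this core were not searched.
MIR210HG promoter: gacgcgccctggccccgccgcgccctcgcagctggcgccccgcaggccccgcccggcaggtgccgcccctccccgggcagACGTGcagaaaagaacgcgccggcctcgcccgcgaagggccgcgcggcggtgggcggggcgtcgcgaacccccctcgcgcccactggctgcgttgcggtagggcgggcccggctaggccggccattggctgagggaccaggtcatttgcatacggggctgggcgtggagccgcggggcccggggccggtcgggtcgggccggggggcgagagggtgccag
The single match to ACGTG lies at position -170. In all, 10 of the 34 members with a promoter in the table held ACGTG, against 21.6% of 27305 promoters: 3 of 10 hosts called higher, 4 of 11 called lower and 3 of 13 not called. The AP-1 motif TGANTCA occurred in 4 of the 34 promoters (7.76% of all), those of MIR4435-2HG and MIR181A1HG, which were called higher, and of MIR219A2HG and MIR155HG, which were not called. CACGTG, the E-box, which contains ACGTG, was in none of the 34 windows and in 7.43% of all. The composite TGATGNAA, bound by CEBP and ATF dimers, was in the window of MIR99AHG alone, against 3.67% of all. Each gene was represented by 1 annotated start, so other starts were not searched. For several members this start lies inside the gene span, among them MIR100HG, MIR4435-2HG, MIR34AHG, MIRLET7BHG, MIR99AHG and MIR29B2CHG. These matches are letters in a window and were not tested as sites.

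MIR22HG, the host of miR-22, stood at 106 and 101 CPM under deprivation and at 25.7 and 22.5 CPM in control cells (chromosome 17, 1711493 to 1717174, minus strand). The groups did not overlap, and the change was 2.10 ± 0.09 on the log2 scale (edgeR adjusted p = 2.36e-05), a 4.29-fold higher level. MIR22 lies within an exon of all 19 annotated transcripts, and transcript MIR22HG-208 held 10430 and 10491 of 11026 and 10993 counts in the deprived and 2837 and 1952 of 2937 and 2479 counts in the control libraries. In control replicate 2 a further 455 counts fell to MIR22HG-201.

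MIR34AHG, the host of miR-34a, a microRNA known to restrain cell cycle genes, had 30.6 and 33.9 CPM in deprived cells and 18.6 and 14.9 CPM in controls (chromosome 1, 9148011 to 9198906, minus strand). This was a rise of 0.94 ± 0.13 on the log2 scale (edgeR adjusted p = 0.00149). Both transcripts with more than a few counts were higher. MIR34AHG-204, whose exon holds the hairpin, had 2206 and 2407 counts in deprived and 1617 and 1192 in control libraries, and MIR34AHG-203 had 983 and 1273 against 506 and 452. Exons of this gene overlap LNCTAM34A on the other strand, but that gene was at 0.373 and 0.240 CPM in deprived and 0.534 and 0.762 CPM in control libraries.

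MIR4435-2HG, a long non-coding RNA gene that overlaps exons of BCL2L11 on the other strand, reached 115 and 109.6 CPM in deprived cells, against 16.3 and 21.1 CPM in controls (chromosome 2, 111036776 to 111523376, minus strand). It had the largest positive fold change of the set at 2.59 ± 0.13 (log2, edgeR adjusted p = 3.85e-05). Its reads are uncertain, since the locus has a near-identical copy, CYTOR, which was at 425 and 367 CPM in deprived and 38.1 and 38.9 CPM in control libraries, and since its main transcript shares an exon with ENSG00000285016. MIR4435-2HG-203, a transcript of 514 bases, held 10215 and 9586 counts in deprived and 1249 and 1364 in control libraries. Summed over transcripts that share no exon with another gene, the change was 0.91 and was not called (edgeR adjusted p = 0.174). The 12 transcripts that span the MIR4435-2 hairpin summed to 228 and 288 counts in deprived and 273 and 323 in control libraries, so the counts gained lay in transcripts that do not reach the hairpin.

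MIR23AHG, the host of the miR-23a, miR-27a and miR-24-2 hairpins, had 64.6 and 64.9 CPM in deprived and 48.2 and 43.0 CPM in control libraries, the highest level of any member in the controls by CPM. Its change of 0.51 ± 0.08 (log2; edgeR adjusted p = 0.0030) was lost with library size as the only scaling (0.17, adjusted p = 0.192). The annotated transcript is a single exon of 19049 bases that overlaps ZSWIM4 on the other strand. ZSWIM4 was at 27.4 and 25.8 CPM in deprived and 3.45 and 3.98 CPM in control libraries, and without strand information its reads cannot be told apart from those of MIR23AHG where they overlap.

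MIR222HG, on chromosome X, carries miR-221 and miR-222, which target the cell cycle inhibitor gene CDKN1B. It had 17.2 and 15.0 CPM in deprived cells and 9.34 and 6.90 CPM in controls (0.99 ± 0.18, edgeR adjusted p = 0.00470). Of its 2 transcripts, MIR222HG-201 spans both hairpins and had 1227 and 1075 counts in deprived and 779 and 760 in control libraries. The other transcript had 571 and 557 counts in deprived libraries, against 288 in control replicate 1, and was listed at 0 in control replicate 2.

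MIR100HG and MIR99AHG carry paralogous clusters, of miR-100, let-7a-2 and miR-125b-1 on chromosome 11 and of miR-99a, let-7c and miR-125b-2 on chromosome 21. MIR100HG had 24.8 and 21.3 CPM in deprived and 12.8 and 9.89 CPM in control libraries (1.02 ± 0.16, edgeR adjusted p = 0.00248). MIR99AHG was scarce, with 39 and 51 counts in deprived and 15 and 12 in control libraries (1.80 ± 0.47, adjusted p = 0.0216). Both were higher in every deprived library than in any control. The call for MIR99AHG was lost with the replicate number as a block (adjusted p = 0.0645) and without deprived replicate 2 (0.0789), control replicate 1 (0.0847) or control replicate 2 (0.12). In MIR100HG, the 8 transcripts that span let-7a-2 and miR-100 summed to 1104 and 805 counts in deprived and 384 and 277 in control libraries, and the other transcripts to 1483 and 1507 against 1079 and 813.

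MIR181A1HG, MIR3936HG and MIR503HG were the remaining hosts called higher. MIR181A1HG, whose miR-181 hairpins are known from lymphocyte signalling, had 2.15 and 4.58 CPM in deprived and 1.16 and 1.09 CPM in control libraries (1.58 ± 0.38, edgeR adjusted p = 0.0165). Deprived replicate 2 stood well above deprived replicate 1, and the change was 0.95 without it. Leaving out control replicate 2 ended the call (adjusted p = 0.0595). The transcript of this gene that reaches the hairpins had 15 and 0 counts in deprived and 0 in each control library. MIR3936HG, which overlaps SLC22A4 and SLC22A5 on the other strand, had 6.18 and 6.06 CPM against 3.59 and 3.54 CPM (0.78 ± 0.16, adjusted p = 0.00774), which missed the threshold when only library size was used for scaling (adjusted p = 0.0716) or only transcripts that share no exon (0.0556).

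MIR503HG, which holds the miR-503 hairpin in an intron on chromosome X, had 3.55 and 4.89 CPM in deprived and 2.30 and 2.64 CPM in control libraries (0.77 ± 0.23, edgeR adjusted p = 0.0347). The call did not hold on leaving out deprived replicate 2 (adjusted p = 0.117), without control replicate 1 (0.151) or 2 (0.079), with library size only (0.184), with no filter (0.0660) and with transcripts that share no exon (0.0849). However, the gene sum was partial: the authors' deposited table pairs the gene with a further transcript, MIR503HG-207, that the annotation used lacks. It had 1077 and 799 counts in deprived and 387 and 343 in control libraries, and with it the change of the gene was 1.19 (edgeR adjusted p = 0.000640).

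**Figure D2:**
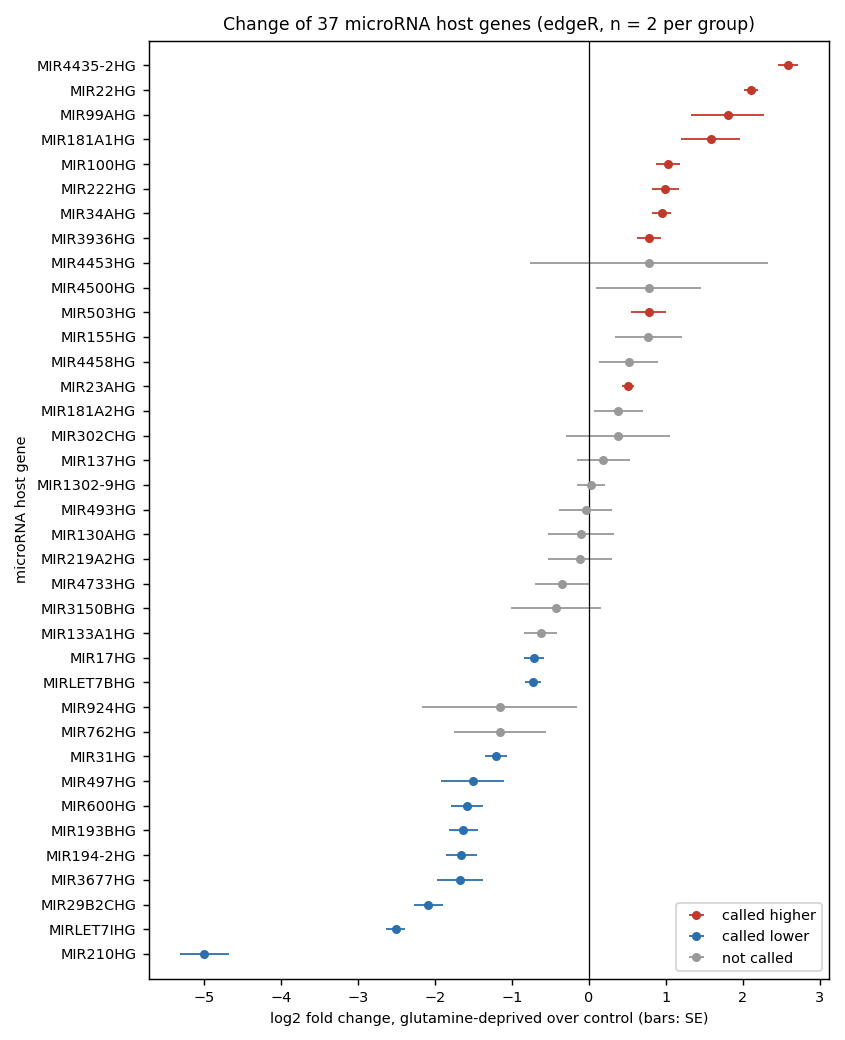
Log2 fold change of glutamine-deprived over control cells for the 37 microRNA host genes (points, with SE as bars; edgeR quasi-likelihood fit, 2 libraries per group), coloured by call at an adjusted p under 0.05. The 10 hosts called higher lie between 0.51 and 2.59 and the 11 called lower between -5.00 and -0.71.

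Among hosts of let-7, a microRNA family that restrains growth genes such as the RAS genes, changes went both ways. MIRLET7IHG, on chromosome 12, had 3.43 and 3.51 CPM in deprived and 19.2 and 20.4 CPM in control libraries (-2.51 ± 0.12, edgeR adjusted p = 3.01e-05), and overlaps LINC01465 on the other strand. MIRLET7BHG, on chromosome 22, had 14.9 and 13.9 CPM in deprived and 25.1 and 22.7 CPM in control libraries (-0.73 ± 0.10, adjusted p = 0.00168). The seed GAGGUAG was the most widely shared of the set, carried by 6 hosts. Besides this pair, which fell, MIR100HG and MIR99AHG rose, and MIR4458HG (log2 fold change 0.52) and MIR4500HG (0.77) were not called.

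Within MIRLET7BHG, single transcripts differed in direction. MIRLET7BHG-201, the only transcript whose span holds the let-7a-3, let-7b and miR-4763 hairpins, had 614 and 734 counts in deprived and 1994 and 1838 in control libraries. MIRLET7BHG-202, which shares exons with PRR34-AS1, had 592 and 543 against 397 and 346 counts. The 3 transcripts without these hairpins summed to 946 and 769 counts in deprived and 870 and 662 in control libraries. The decrease of the gene thus lay in the transcript that holds the hairpins, as far as the estimated division of reads among transcripts can be relied on; no test was made on transcripts. Transcripts that share no exon with another gene leave out MIRLET7BHG-201, because its exon holds microRNA genes. With them the change was -0.36 and not called (edgeR adjusted p = 0.389). Direction and call of the gene were the same in 11 of the 12 alternatives.

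**Figure D3:**
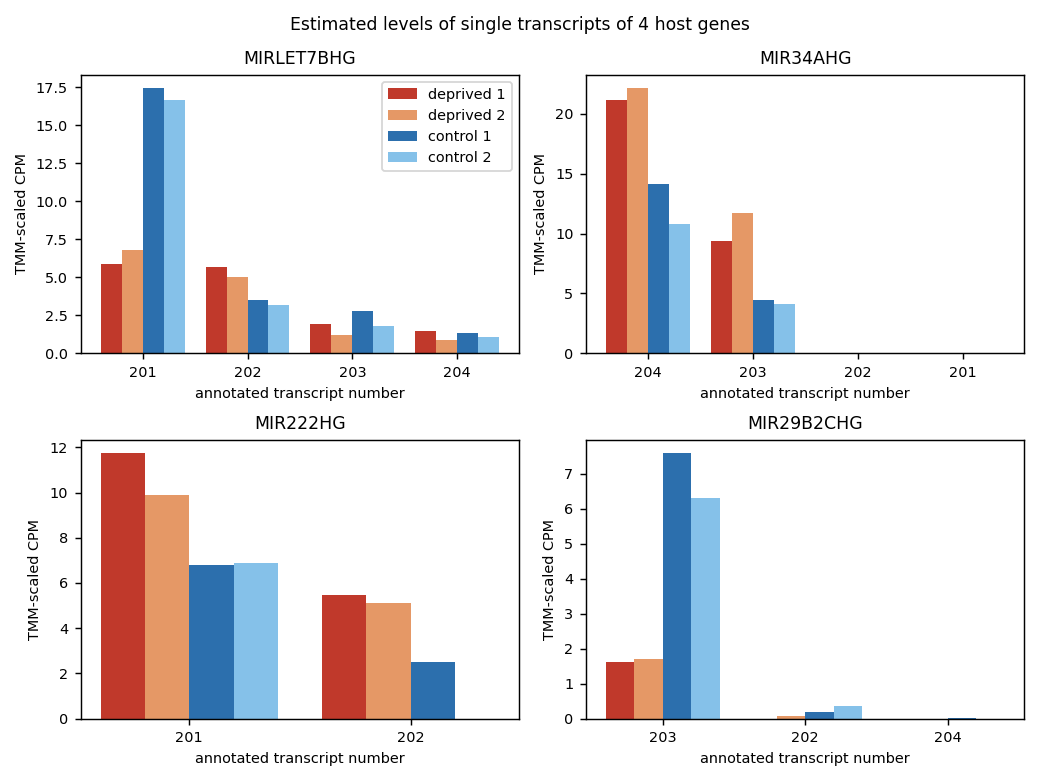
Estimated level (TMM-scaled CPM) of each annotated transcript with a count, by its number in the annotation, for MIRLET7BHG, MIR34AHG, MIR222HG and MIR29B2CHG, with 1 bar per library and the 2 deprived libraries left of the 2 controls. In MIRLET7BHG, MIRLET7BHG-201 is lower in both deprived libraries (5.88 and 6.76 CPM) than in both controls (17.45 and 16.7 CPM) while MIRLET7BHG-202 is higher, and MIR29B2CHG-203 holds nearly all of the level.

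MIR29B2CHG, on chromosome 1, is the host of miR-29b-2 and miR-29c, which target collagen and DNA methyltransferase mRNAs. It had 1.62 and 1.78 CPM in deprived and 7.80 and 6.66 CPM in control libraries (-2.09 ± 0.19, edgeR adjusted p = 0.000258). Both deprived libraries lay below both controls. Transcripts that share no exon with another gene leave out MIR29B2CHG-203, because its exon holds microRNA genes. Those left had 0 and 7 counts in deprived and 23 and 40 in control libraries. Summed over them, the change was -3.07 and was not called (edgeR adjusted p = 0.0693). Direction and call were the same in 11 of the 12 alternatives. Transcript MIR29B2CHG-203, the only transcript with the hairpins, held 169 and 186 counts in deprived and 868 and 694 in control libraries.

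MIR194-2HG, on chromosome 11, carries miR-192 and miR-194-2, known as epithelial microRNAs. It had 2.47 and 1.98 CPM in deprived and 6.48 and 7.60 CPM in control libraries (-1.66 ± 0.20, edgeR adjusted p = 0.000906). MIR193BHG, on chromosome 16, the host of miR-193b and miR-365a, fell to 3.55 and 4.95 CPM under deprivation, against 12.8 and 13.6 CPM in controls (-1.63 ± 0.19, adjusted p = 0.000797). The 4 of its 17 transcripts that span the hairpins held nearly all of its counts, 365 and 524 in deprived and 1427 and 1487 in control libraries.

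MIR31HG, on chromosome 9 (21455642 to 21559669, minus strand), gives a long RNA studied for its part in senescence and carries miR-31 in an intron. It had 10.8 and 11.4 CPM in deprived and 22.3 and 29.2 CPM in control libraries (-1.21 ± 0.15, edgeR adjusted p = 0.000949). The controls differed from each other more than the deprived libraries did, without reaching them. A second transcript that the authors' deposited table names, MIR31HG-202, was outside the annotation used. It had 332 and 222 counts in deprived and 1113 and 1013 in control libraries, and with it the change was -1.36.

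MIR17HG, on chromosome 13, is the host of the miR-17-92 cluster, a growth-promoting set of 6 hairpins that MYC and E2F factors are known to switch on. Its level was 6.04 and 6.20 CPM in deprived and 9.75 and 10.3 CPM in control libraries (-0.71 ± 0.13, edgeR adjusted p = 0.00533). MIR17HG-203, a retained-intron form that holds the hairpins in an exon, had 451 and 538 counts in deprived and 838 and 879 in control libraries, and the spliced MIR17HG-201 had 168 and 105 against 244 and 231. With transcripts that share no exon, which leave out MIR17HG-203 because its exon holds microRNA genes, the change was -0.72 and not called (adjusted p = 0.100). MYC RNA was higher in deprived cells, at 265 and 218 CPM against 58.4 and 60.4 CPM (2.02 ± 0.11). E2F1 RNA was lower at 10.6 and 10.2 CPM against 48.2 and 43.2 CPM, E2F2 RNA was lower at 2.65 and 2.29 CPM against 18.9 and 16.3 CPM, and E2F3 RNA was higher at 69.6 and 78.2 CPM against 40.2 and 41.9 CPM.

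MIR600HG, MIR3677HG and MIR497HG were the other hosts called lower, and of these MIR3677HG and MIR497HG were scarce. MIR600HG, whose exons lie in STRBP, had 1.51 and 1.71 CPM in deprived and 5.29 and 4.38 CPM in control libraries (-1.58 ± 0.21, edgeR adjusted p = 0.00135), and STRBP itself fell to 26.0 and 23.7 CPM against 35.4 and 35.1 CPM. MIR3677HG, which overlaps RNPS1, had 0.354 and 0.433 CPM against 1.18 and 1.34 CPM (-1.68 ± 0.30, adjusted p = 0.00478). MIR497HG, the host of miR-195 and miR-497 of the growth-restraining miR-15/16 family, had 35 and 25 counts against 113 and 69 (-1.51 ± 0.41, edgeR adjusted p = 0.0245). Exons of MIR497HG overlap ENSG00000267047 on the same strand and C17orf49 and RNASEK-C17orf49 on the other strand. Leaving out deprived replicate 2 (adjusted p = 0.0647) or control replicate 1 (0.174) ended its call, as did applying no filter (0.0524).

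The other 16 members were not called, with log2 fold changes from -1.16 to 0.78 and edgeR adjusted p from 0.0549 to 0.933. MIR133A1HG came nearest to a call, with 1.46 and 1.39 CPM in deprived and 2.19 and 2.21 CPM in control libraries (adjusted p = 0.0549), and was called with library size only (-0.96, adjusted p = 0.0129) and with at least 50 counts in at least 2 libraries (-0.68, adjusted p = 0.0338). MIR4453HG had 419 and 375 counts in deprived libraries, and was listed at 0 in control replicate 1 but at 480 counts in control replicate 2. MIR1302-9HG, of a subtelomeric family with near-identical copies, had 3.49 and 3.84 CPM against 3.68 and 3.51 CPM. For this gene the groups overlapped and the fold change was 0.03 ± 0.18. Its exons overlap WASHC1 on the other strand. WASHC1 was called higher, at 10.5 and 11.3 CPM in deprived and 6.48 and 5.86 CPM in control libraries. The part of WASHC1 reads in the level of MIR1302-9HG was not tested.

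MIR137HG, part of whose exons belong to DPYD as well, had 1.87 and 2.31 CPM in deprived and 2.40 and 1.28 CPM in control libraries. MIR4458HG had 2.30 and 1.29 CPM against 0.963 and 1.54 CPM, and MIR493HG, in the imprinted MEG3 region, had 0.833 and 1.33 CPM against 0.928 and 1.30 CPM. In all 3 the groups overlapped. The remaining 10, MIR181A2HG, MIR4733HG, MIR130AHG, MIR924HG, MIR219A2HG, MIR4500HG, MIR155HG, MIR762HG, MIR3150BHG and MIR302CHG, averaged under 1 CPM. Of these, MIR155HG, the host of the inflammatory miR-155, had 34 and 49 counts against 27 and 24 (0.77 ± 0.44, adjusted p = 0.195). MIR181A2HG, with the same mature miR-181 sequences as MIR181A1HG, had 97 and 133 counts against 111 and 75 (0.38 ± 0.32, adjusted p = 0.371); whether the 2 hosts differed from each other in their change was not tested.

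Per length, the order of the hosts differed from that by counts. In TPM, a per-length share of all transcripts computed from the estimated counts, MIR4435-2HG (325 TPM in deprived, 58.9 TPM in control libraries on average), MIR22HG (68.7 and 21.3 TPM) and MIR31HG (24.1 and 69.6 TPM) were at the top in 1 group or the other. MIR31HG stood below MIR100HG (34.8 and 28.0 TPM) in the deprived cells and above every other member in the controls. MIR23AHG, with its long annotated exon, was at 5.47 and 4.88 TPM. MIRLET7BHG (16.9 and 22.4 TPM), MIR222HG (17.4 and 11.6 TPM) and MIR34AHG (12.2 and 8.06 TPM) followed the leading hosts.

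Hosts with a hairpin in an exon and hosts with all hairpins in introns both moved in either direction. Of 17 with a microRNA gene inside an exon, 3 were called higher and 7 lower. Of 18 with intronic hairpins, 7 were called higher and 4 lower, and the 2 in which a hairpin crossed an exon edge were not called. Among all genes tested, 25.2% were called higher and 24.4% lower. The groups of hosts are small, and the difference between the kinds was not tested. The annotated microRNA genes themselves had at most 35 counts in any library, and 45 of 75 had no more than 1 in each, so no change is given for them.

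The authors' deposited table of 219 long non-coding transcripts held 11 transcripts of 10 of these hosts, 5 higher and 6 lower in deprived cells. By that table, MIR4435-2HG-203 was at 244 FPKM in deprived and 32.1 FPKM in control cells (log2 fold change 2.93, q = 0.00658), and MIR29B2CHG-203 at 0.107 and 0.456 FPKM (-2.10, q = 0.00100). Each of the 11 had a q of at most 0.0424 there, and that table compares the same 2 groups of this series. A match in direction is therefore no separate support. For 10 of the 11 transcripts the deposited counts per library moved in the direction of the authors' deposited table. The exception was MIR100HG-201. The authors' deposited table gives it 7.50 FPKM in deprived and 2.25 FPKM in control cells, whereas the per-library files list 0 and 2 counts in deprived and 0 in both control libraries.

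Genes that make and use microRNAs changed as well, most of them upwards. Of 20 processing genes, 10 were higher and 5 lower, with a median log2 fold change of 0.40. Of 15 effector genes, 11 were higher and 1 lower, with a median of 0.94. Among all 15411 protein-coding genes tested, 34.3% were higher and 29.8% lower, with a median of 0.01. DROSHA, the nuclease that makes the first cut, fell to 41.5 and 40.7 CPM under deprivation, against 69.5 and 66.0 CPM in controls (-0.72 ± 0.07, edgeR adjusted p = 0.000350), and SRRT, XRN2 and TNRC6B were lower by -0.73, -0.60 and -0.59 on the log2 scale. XPO5, which exports precursors, rose (0.87 ± 0.07), as did DICER1 (0.56 ± 0.09), AGO2 (1.33 ± 0.11) and TNRC6C (2.06 ± 0.17). The smallest p among those that rose belonged to XRN1 (1.42), the uridylating enzyme gene TUT7 (1.24), the decapping enzyme gene DCP2 (1.33) and ZSWIM8 (0.98), which takes part in target-directed microRNA decay. With library size as the only scaling, 13 of the 35 were higher and 9 lower, against 21 and 6 with TMM.

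**Figure D4:**
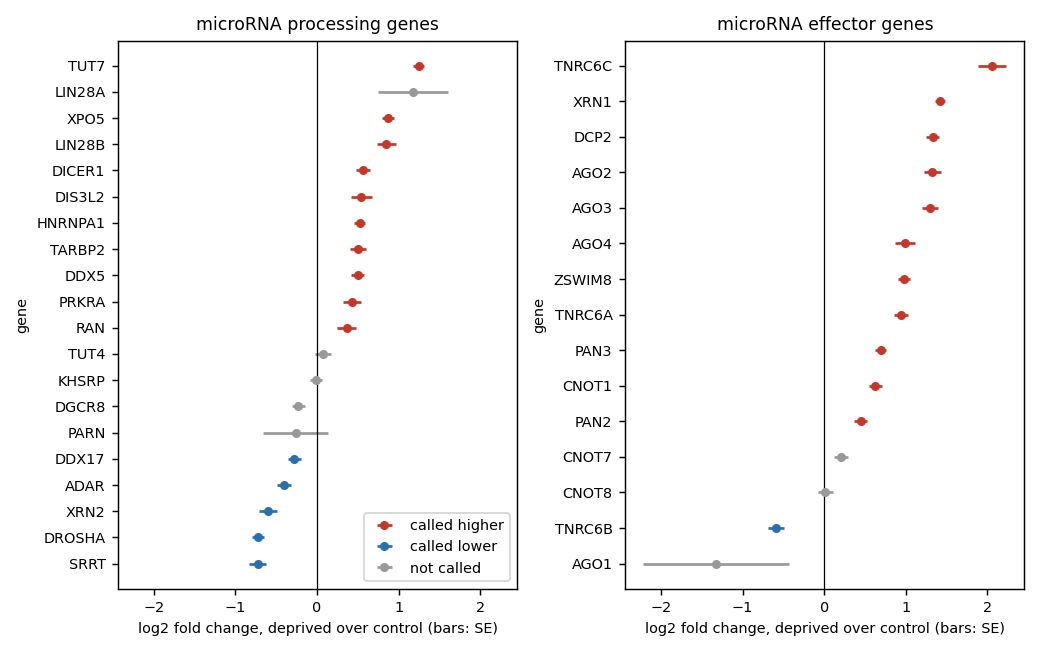
Log2 fold change of glutamine-deprived over control cells (points, with SE as bars; edgeR quasi-likelihood fit, 2 libraries per group) for 20 microRNA processing genes and 15 effector genes, coloured by call at an adjusted p under 0.05. DROSHA and SRRT lie lowest among the processing genes called, at -0.72 and -0.73, and TNRC6C lies highest among the effector genes at 2.06.

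Of the other listed factors that act on host genes, JUN (5.66 ± 0.14), EGR1 (6.77 ± 0.55), FOS (1.61 ± 0.19), NFKB1 (1.34 ± 0.09), RELA (1.14 ± 0.09), ZEB1 (1.11 ± 0.08) and ZEB2 (2.17 ± 0.09) were called higher, STAT3 (-0.01 ± 0.07) was not called, and MYCN had no count in any library. Genes outside the naming rule that hold a microRNA gene moved in both directions. Among 832 protein-coding ones tested, 299 were higher and 278 lower, or 35.9% and 33.4%, with a median log2 fold change of 0.02. PER1, DDIT3, UGCG and C3orf52 rose and ARRB1, SHMT1, MTUS1 and GNAI2 fell with the smallest p. Among 55 non-coding ones, 13 were higher, with CYTOR, NCAL1, MEG3 and LINC-PINT at the smallest p, and 10 were lower, with MUC20-OT1, ENSG00000282304, DNM3OS and FTX. These counts were 23.6% and 18.2%, against 25.2% and 24.4% of all genes tested and 9.62% and 16.4% of all non-coding genes tested. Among non-coding genes with a mean of at least 20 counts the shares were 12.4% and 19.2%. Depth was not matched for these hosts, and the difference in shares was not tested. The median of these non-coding hosts was -0.09, against -0.25 over all non-coding genes tested.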

How the data were processed

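RNA-seq was made from A549 cells, and per the labels' protocols mRNA was purified on poly-T beads, fragmented and copied with random hexamers. Per the submitters' processing notes, the tools were DESeq2 1.20.0, featureCounts 1.5.0-p3 and HISAT2 2.0.5, on hg38, with no role given. The authors deposited estimated counts, 1 whole number for each of 229420 transcripts, with the tool that divided reads among transcripts not given in the sources used here. A second deposited table holds the authors' FPKM per group, log2 fold changes, p-values and q-values and a test score for 219 transcripts.

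Counts were summed to genes over GENCODE 29 (GRCh38), which matched 205306 transcript IDs that held between 98.0% and 98.2% of each library's counts; the 24114 others were left out, so some gene sums are partial. Symbols came from a current table of gene names. Genes were filtered with filterByExpr, scaled with TMM (factors 0.862 and 0.919 for deprived, 1.15 and 1.10 for control libraries) and tested with edgeR 4.0.16 (glmQLFit, glmQLFTest, two-sided, adjusted p under 0.05) in R 4.3.3; SE is the absolute log2 fold change over the square root of F. Replicates differed beyond counting noise (chi-square per degree of freedom 48.8 deprived, 34.7 control). TPM used annotated transcript lengths.

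Named were all members, by sample where called or at 1 CPM or more, and list genes with the smallest p; XPO5, DICER1, AGO2 and TNRC6C were chosen after their values were seen. Members and lists were chosen with earlier results of these data known. Alternatives were RLE factors, library size only, 2 other filters, DESeq2 1.42.0, a replicate block, each library left out, and 3 other sums of transcripts. A hand-made list chose the mature arm shown. Some genes of the lists are not reported here.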

Additional observations from a re-analysis of the deposited data

Results flagged for a closer look

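MIR503HG-207, a transcript paired with MIR503HG in the authors' deposited table but outside the annotation used for gene sums, had a signal in data that the comparison of genes did not use. It had 1077 and 799 counts in the deprived libraries and 387 and 343 counts in the controls, more than the 371 and 531 counts of the whole annotated gene in the deprived libraries.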

How the results depend on the processing

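The counts of hosts called, 10 higher and 11 lower, were 8 to 10 and 10 to 11 when each library was left out. Of 37 single fold changes, none lost its call or direction with RLE factors or DESeq2; library size only ended 3 calls, added 1 and turned 2. With transcripts that share no exon, 4 hosts were higher and 2 lower, and 6 and 7 when microRNA genes were not counted as other genes, a sum added after seeing the data; then only 16 and 25 members could be tested. With library size only, 13 machinery genes and 188 protein-coding hosts were higher, and the median of all genes was -0.40, against -0.06. Non-coding hosts outside the naming rule called lower were 6 to 11 without single libraries (6 without control replicate 2). The sign turned for uncalled members: MIR1302-9HG (-0.31 library size only, -0.021 with at least 50 counts) and MIR137HG (-0.16 library size only). Leaving out libraries gave ranges of -0.027 to 0.10 for MIR1302-9HG, -0.23 to 11.7 for MIR4453HG (called without control replicate 2, against a library at 0), -0.21 to 0.70 for MIR137HG, -0.40 to 0.26 for MIR493HG, -0.66 to 0.31 for MIR130AHG, -3.30 to 0.19 for MIR924HG (called without deprived replicate 2), -0.54 to 0.22 for MIR219A2HG, -0.51 to 1.46 for MIR4500HG (called without deprived replicate 2), -0.90 to 0.25 for MIR3150BHG and -0.65 to 0.98 for MIR302CHG; the cause was not tested. With the replicate number as a block, 9 hosts were higher; MIR99AHG lost its call, and no other member did. Same-numbered libraries did not deviate together (r = -0.0235 across genes). The labels do not say whether they were prepared as pairs, and this value cannot decide it. All 10 members that were not called and averaged under 1 CPM rest on few counts, while MIR3677HG, MIR497HG and MIR99AHG were called below that level.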
